A study of Solanum tuberosum with 10 samples.

Results

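SN2 is the potato gene for snakin-2, and it was 1 of 40430 features in the count table deposited for explants of potato plantlets (Solanum tuberosum, cultivar Desirée) raised in vitro. It was taken as the row whose identifier and listed annotation match and whose symbol is SN2, and 1 row met that rule. The gene was chosen from results of these same 10 libraries, in which its level fell after cutting and differed between the arms. Its levels are therefore given as a description, with no p-value.

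Snakins are small, cysteine-rich antimicrobial peptides of the GASA family, which is named after gibberellin-stimulated transcripts of Arabidopsis and tomato. They are made as precursors with a signal peptide, and the mature peptide is held compact by disulfide bridges. Snakin-2 was purified from potato tubers and inhibits bacterial and fungal pathogens in culture. Its transcript has been reported in tubers, stems, leaves, flowers and shoot apices, and it has been described as responsive to wounding and to abscisic acid.

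The study cut node segments with their leaf from plantlets 4 weeks old. Per the labels, explants of the treated arm were ultrasonicated in liquid Murashige-Skoog (MS) medium, 90 of them to 40 ml in each 50 ml beaker, and a control arm was not. Whether control explants were also immersed is not stated in the labels, so immersion and ultrasound cannot be told apart. Both arms were grown on hormone-free medium. Sampling began right at the end of treatment (0 h), went on at 24 h and 48 h, and ended with 1 week and 4 weeks. Each of the 10 libraries pooled RNA of 3 biological replicates, which leaves 1 library per arm and time and no measure of the spread between plants. The tissue label reads stem at 0 h and 24 h, and stem and plantlet from 48 h on. Between the times up to 24 h and those from 48 h on, time and the tissue sampled can therefore not be told apart. From 48 h on the label stays the same, and it gives no share of stem and plantlet.

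Total counts per library ran from 122786170 to 161153911. Libraries were scaled by TMM (trimmed mean of M-values), and levels are given as CPM, the counts as a rate of the scaled library size. The 0 h pair had the lowest TMM factors, 0.688 with and 0.885 without ultrasound, and the rest had 0.975 to 1.14. The share of rRNA features was 2.19% in control explants at 24 h and 0.0333% to 0.423% elsewhere. RBCS-2C, a Rubisco small subunit and the 1 marker of green tissue that the table names, was present in all 10 libraries at 202 to 2063 CPM.

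SN2 is listed as PGSC0003DMG400001598 on chromosome 1, from 87145671 to 87146801 on the minus strand, a span of 1131 bases in coordinates of an unnamed build. The listing gives no exons or UTRs. No other feature overlapped it (0). The nearest feature on one side began 6312 bases away, on the same strand, and held 46.5 to 92.9 CPM over the 10 libraries. On the other side the nearest feature lay 453 bases away on the plus strand, from 87143395 to 87145217, and held 0.569 to 5.02 CPM. Its count was at most 1.52% of the SN2 count in the same library. Its level on the log2 scale went with that of SN2 with r = 0.78 over the 10 libraries, which share their scaling. The next feature beyond it, 2874 bases from SN2, had r = -0.39 and held 65.9 to 128 CPM. On the opposite side, r was 0.42 for the feature 6312 bases away and 0.35 for the next one beyond that. Whether reads passed between SN2 and the feature 453 bases away was not tested.

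SN2 was abundant in freshly cut explants and fell steeply over the first day in both arms. In control explants its level was 1544 CPM at 0 h (174710 counts), 207 CPM at 24 h (24748 counts), 256 CPM at 48 h (46410 counts), 56.1 CPM at 1 week (8049 counts) and 449 CPM at 4 weeks (68113 counts). In ultrasonicated explants it was 737 CPM at 0 h (71023 counts), 229 CPM at 24 h (29942 counts), 354 CPM at 48 h (51824 counts), 127 CPM at 1 week (18031 counts) and 467 CPM at 4 weeks (76193 counts). Both arms therefore went through the same sequence, down by 24 h, up at 48 h, down to the lowest level at 1 week and up again at 4 weeks. Counting error was small beside these differences. The exact 95% Poisson interval of the lowest library, control at 1 week, was 54.8 to 57.3 CPM, and that of the highest, control at 0 h, was 1537 to 1551 CPM.

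**Figure D1:**
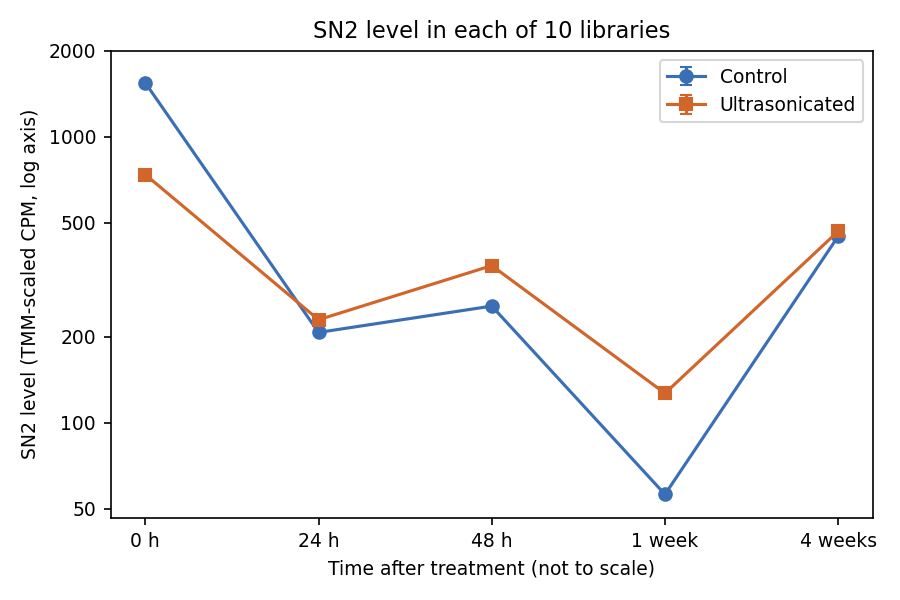
SN2 level in each library, in TMM-scaled CPM on a log axis, by time for control (circles) and ultrasonicated (squares) explants, with 1 pooled library per point; bars are exact 95% Poisson intervals for counting error and are smaller than the symbols. The lines cross between 0 h and 24 h, control being higher at 0 h (1544 against 737 CPM) and lower at 1 week (56.1 against 127 CPM).

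The levels of the arms gave a range at each time, which is not a spread between replicates, since the arms differ in treatment. From high to low the ranges were 0 h (737 to 1544 CPM), 4 weeks (449 to 467 CPM), 48 h (256 to 354 CPM), 24 h (207 to 229 CPM) and 1 week (56.1 to 127 CPM). No neighbours in that order overlapped on this scale. As a share of all counts, with no TMM factor, 0 h (0.0507% to 0.137%) and 4 weeks (0.0491% to 0.0531%) did overlap, and the other times stayed apart. The place of the 4-week level relative to 0 h thus rested on the scaling in the ultrasonicated arm.

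Per kilobase of listed span, SN2 stood among the most abundant transcripts of fresh control explants. Its level there, 1365 CPM per kb, ranked 11 among the 24421 features kept by the filter on low counts. In the ultrasonicated library at 0 h it ranked 135, at 652 CPM per kb. By 1 week it had moved down to rank 1258 in control (49.6 CPM per kb) and rank 581 in ultrasonicated explants (112 CPM per kb). At 4 weeks the ranks were 101 (397 CPM per kb) and 85 (413 CPM per kb). Spans may include introns, which these per-length levels do not allow for. Of the 20 genes that the table pairs with a symbol and that passed the filter, SN2 was number 3 by mean level per kb.

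The first comparison, between consecutive times within each arm, asked when SN2 changed after cutting. From 0 h to 24 h it fell 7.47-fold in control explants (exact 95% interval 7.37 to 7.57, for counting error only) and 3.22-fold in ultrasonicated explants (3.18 to 3.26). Both falls were wholly beyond 2-fold, as were falls of 18.1% of the features in control and 21.8% in ultrasonicated explants. A fall at least as large as that of SN2 was seen in 2.05% of features in control and in 11.0% in ultrasonicated explants. In bulk tissue, fewer cells with the transcript and less transcript per cell cannot be told apart.

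The rise from 24 h to 48 h, the step at which the tissue label changes, was small. The ratio of 48 h to 24 h was 1.24 in control (1.22 to 1.26) and 1.55 in ultrasonicated explants (1.52 to 1.57), within 2-fold in both, while 10.7% and 12.8% of features were higher beyond 2-fold. The rRNA share differed between the control libraries of this step, from 2.19% to 0.0333%. With rRNA features left out of the scaling the control ratio was 1.3, in the same direction.

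A further fall followed from 48 h to 1 week, 4.56-fold in control (4.45 to 4.67) and 2.80-fold in ultrasonicated explants (2.75 to 2.85). These were beyond 2-fold, as for 13.0% and 12.1% of features in the same direction. In both arms the 1-week library had the lowest SN2 level of the 5 times, which held for 8.46% of all features kept. From 1 week to 4 weeks SN2 rose from 56.1 to 449 CPM in control, a factor with an interval of 7.82 to 8.19, and 3.69-fold in ultrasonicated explants (3.63 to 3.75), where 10.8% and 16.5% of features were higher beyond 2-fold. A rise as large as that of SN2 was rare in control, in 0.278% of features, and occurred in 3.29% in ultrasonicated explants.

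**Figure D2:**
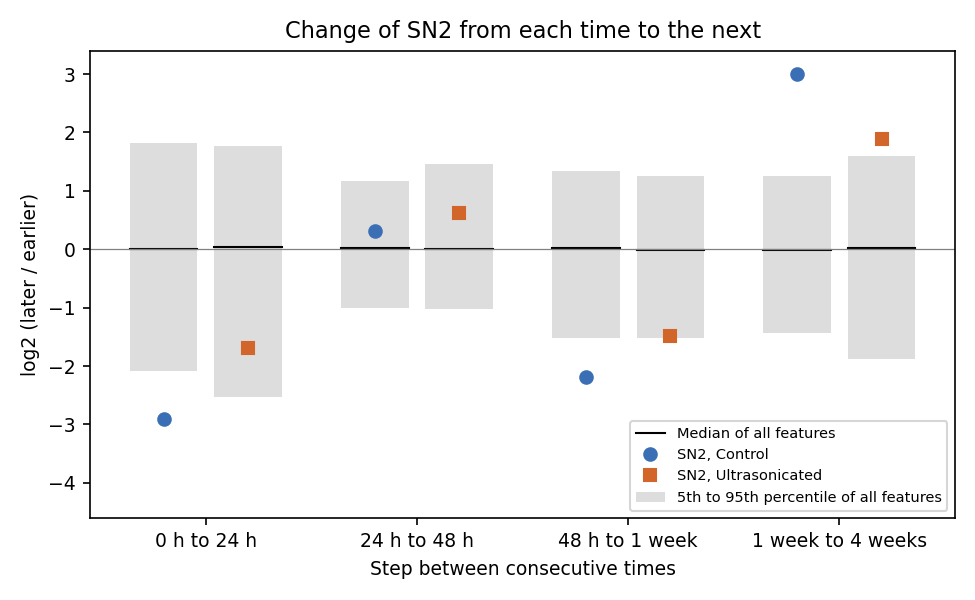
Change of SN2 from each time to the next, as log2 of the later over the earlier level, in control (circles) and ultrasonicated (squares) explants; grey bars span the 5th to 95th percentile of all 24421 features kept and black lines mark their median. SN2 had the same sign in both arms at each of the 4 steps, and the control points lay outside the grey bars at 3 of them. The ultrasonicated point lay outside its bar only at the step from 1 week to 4 weeks.

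The sequence of down, up, down and up in both arms was shared by 914 of 24421 features (3.74%), SN2 included, whatever the size of their steps. The span of the control time course was wide, 27.5-fold between the highest and the lowest library, and 1.88% of features had as wide a span in that arm. In the ultrasonicated arm the span was 5.82-fold, and 18.8% of features reached it. Set against 0 h, the control level was 6.04-fold lower at 48 h, 27.5-fold lower at 1 week and 3.44-fold lower at 4 weeks. All of these were beyond 2-fold, as were falls in 17.5%, 18.4% and 15.0% of features.

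In ultrasonicated explants the level against 0 h was 2.08-fold lower at 48 h and 5.82-fold lower at 1 week, beyond 2-fold with 19.0% and 22.4% of features lower likewise. At 4 weeks it was 1.58-fold lower, within 2-fold, where 18.3% of features were lower beyond it. Scaled to total counts, the ultrasonicated ratios to 0 h moved to 0.755 at 48 h, no longer beyond 2-fold, and to 1.05 at 4 weeks, the opposite direction. The same scaling moved the median of all features against 0 h to 0.55 and 0.64 on the log2 scale, from 0.07 and 0.09. With upper-quartile scaling the ultrasonicated ratio of 48 h to 0 h was 0.544, also no longer beyond 2-fold.

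The second comparison asked how ultrasonicated explants differed from control at each time. Directly after treatment SN2 stood at 0.478 times its control level (exact interval 0.473 to 0.482), 737 against 1544 CPM. It was thus lower beyond 2-fold, as were 11.2% of features at 0 h. At least as far below control as SN2 were 7.53% of features. The TMM factor of the ultrasonicated library was the lowest of the 10, and its part in this value was not tested apart from other scalings, under which the ratio ran from 0.371 (total counts) to 0.484 (median-ratio size factors). With total counts the median of all features at 0 h also moved, to -0.28 on the log2 scale.

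At 24 h the arms lay close, at 229 CPM in ultrasonicated and 207 CPM in control explants, a ratio of 1.11 (1.09 to 1.13). At 48 h the ratio was 1.39 (1.37 to 1.40), 354 against 256 CPM. Neither was beyond 2-fold, where 5.2% and 2.64% of features were higher. At least as far above control as SN2 were 36.0% of features at 24 h and 14.7% at 48 h. These intervals cover counting error, and the spread between plants that a library pools is unknown.

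At 1 week the ultrasonicated library held 2.26 times the control level of SN2 (2.20 to 2.32), 127 against 56.1 CPM, in the opposite direction to 0 h. It was higher beyond 2-fold, as were 6.74% of features, and 2.60% of features were at least as far above control as SN2. At 4 weeks the arms stood at 467 and 449 CPM, a ratio of 1.04 (1.03 to 1.05), within 2-fold, where 5.95% of features were higher. At that time 44.3% of features were at least as far above control as SN2.

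**Figure D3:**
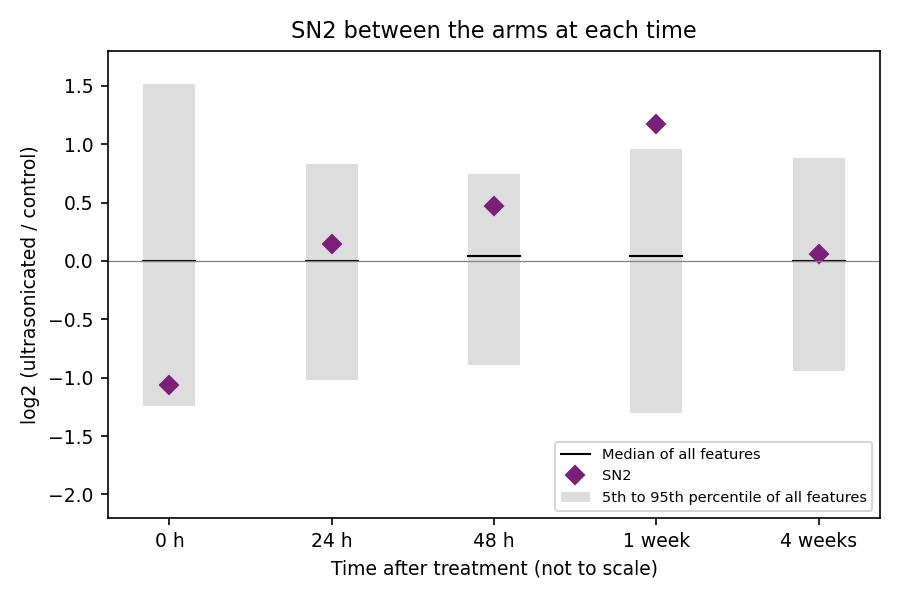
SN2 between the arms at each time, as log2 of ultrasonicated over control (diamonds), from 1 library per arm; grey bars span the 5th to 95th percentile of all 24421 features kept and black lines mark their median. SN2 lay at -1.07 at 0 h, within the grey bar, and at 1.18 at 1 week, above it.

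On the log2 scale the arm difference of SN2 moved from -1.07 at 0 h to 1.18 at 1 week, a shift of 2.24. A shift at least as large in that direction was seen in 2.1% of features, and the median shift of all features was 0.03. Lower beyond 2-fold at 0 h and higher beyond 2-fold at 1 week held for 447 of 24421 features, or 1.83%. The reverse combination held for 614, or 2.51%. This shift compares single libraries and was not tested. Among the other genes with a symbol, RBCS-2C and NDA1, an alternative NAD(P)H dehydrogenase, were furthest below control at 0 h, and both stood above it at 1 week. Their log2 ratios, with a pseudocount of 0.5 CPM, were -1.58 and 0.79 for RBCS-2C and -1.20 and 0.90 for NDA1. RBCS-2C and NDA1 were picked out after their values were seen. 2MBCD, NDB1, WHY1, ATPE and RPOA were also below control at 0 h and above it at 1 week. Of these, ATPE and RPOA had means of only 0.447 and 0.979 CPM. METK1, next furthest below control at 0 h (-0.71), was below it at 1 week too (-0.18), as was EIF5A5. The remaining genes with a symbol were above control at 0 h.

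Features with a time course like that of SN2 were then sought, by Pearson's r of log2(CPM + 0.5) over the 10 libraries, among 15616 features with a mean of at least 5 CPM. The median r was -0.03, with the 5th percentile at -0.75 and the 95th at 0.74. An r of at least 0.9 was reached by 50 features (0.32%), and 15 (0.0961%) were at -0.9 or below. The points are 10 libraries that fall into 5 time pairs, so r mostly follows time and is given as a description.

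The most alike was PGSC0003DMG400009352 (chromosome 4, 65266424 to 65270591) with r = 0.96. Its level moved only between 6.03 and 11.1 CPM, a 1.84-fold span beside the 27.5-fold span of SN2. Next was PGSC0003DMG400025794 (chromosome 1, 84596601 to 84603067) with r = 0.95, at 114 CPM in control at 0 h, 26.2 CPM in control at 1 week and 46.3 CPM in ultrasonicated explants at 1 week. The table gives no name or description for either. The 10 most alike features had r of 0.93 to 0.96 and spans from 1.84-fold to 1011-fold. All 10 had a lower value in the ultrasonicated than in the control library at 0 h (ratios 0.292 to 0.958), and 6 of 10 had a higher one at 1 week (0.745 to 1.77). These ratios use the libraries that chose the features and support nothing further.

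The most opposite courses were those of PGSC0003DMG400023791 (chromosome 1, 80881581 to 80886427), with r = -0.94 and 18.7 to 35.2 CPM, and PGSC0003DMG400031831 (chromosome 9, 53253079 to 53255763), with r = -0.94 and 5.07 to 33.1 CPM. Both had their highest level in the control library at 1 week, where SN2 had its lowest. The list of alike features depended on single times: of the 10 most alike, 1 was still among the 10 without the 0 h pair, 1 without the 1-week pair and 0 without the 4-week pair.

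**Figure D4:**
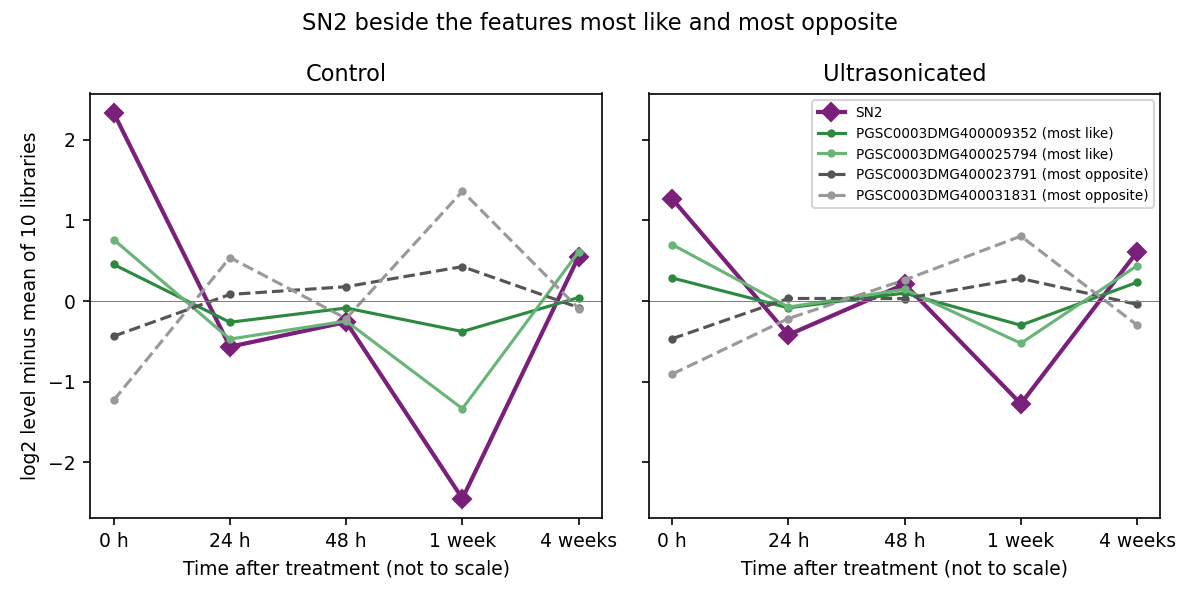
Time courses of SN2 (diamonds), the 2 features most like it (solid green lines) and the 2 most opposite (dashed grey lines), as the log2 level minus the feature's mean over 10 libraries, in control (left) and ultrasonicated (right) explants. SN2 has the widest swing of the 5 in both panels, and PGSC0003DMG400009352 follows its turns over a 1.84-fold span.

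Among the 19 other genes with a symbol that passed the filter, 10 had a positive and 9 a negative r with SN2, and none reached 0.9 in size (0). The closest were 2MBCD, which encodes a dehydrogenase acting on branched-chain acyl-CoA, and EIF5A5, a translation factor, both with r = 0.57. ATPE, which carries the name of a plastid ATP synthase gene, followed with r = 0.53. Its mean was 0.447 CPM, below the pseudocount of 0.5 CPM, and its r was 0.63 in control and 0.28 in ultrasonicated libraries. METK1, an S-adenosylmethionine synthase, had r = 0.46. For 2MBCD, at a mean of 4.82 CPM, r was 0.89 in control libraries, -0.08 in ultrasonicated ones and 0.30 with total counts. By Spearman's rho METK1 was the closest of the named genes, at 0.60. Of the features at 5 CPM or more, 15.4% had a higher r than EIF5A5. EIF5A5 shared the high levels at 0 h (1049 and 1024 CPM in control and ultrasonicated explants) and the low ones at 24 h (292 and 296 CPM). At 1 week it stood at 557 CPM in control, above its 24 h level, where SN2 was at its lowest.

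RBCS-2C had r = 0.20 over all libraries, a value that turned on which libraries entered. It was 0.86 without the 1-week pair, at which RBCS-2C held 962 CPM with no treatment and 1661 CPM after ultrasound, and -0.26 without the 0 h pair. Within the arms it was 0.43 in control and -0.35 in ultrasonicated libraries. WHY1, a Whirly-type DNA-binding protein, ran most nearly opposite to SN2 among the named genes, with r = -0.83, from 6.02 CPM in control at 0 h to 25.2 CPM at 1 week. CHS1B, a chalcone synthase of flavonoid synthesis, had r = -0.80. Its control level was 0.813 CPM at 0 h, 23.8 CPM at 24 h, 35.6 CPM at 48 h, 24.4 CPM at 1 week and 5.28 CPM at 4 weeks. In control it was thus higher at 24 h and lower at 4 weeks, opposite to SN2. It moved the same way as SN2 there from 24 h to 48 h and from 48 h to 1 week. In ultrasonicated explants CHS1B was at 1.91 CPM at 0 h, 30.1 CPM at 24 h and 27.8 CPM at 48 h. It was at 34.3 CPM at 1 week and 15.5 CPM at 4 weeks, opposite in direction to SN2 at every step of that arm.

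**Figure D5:**
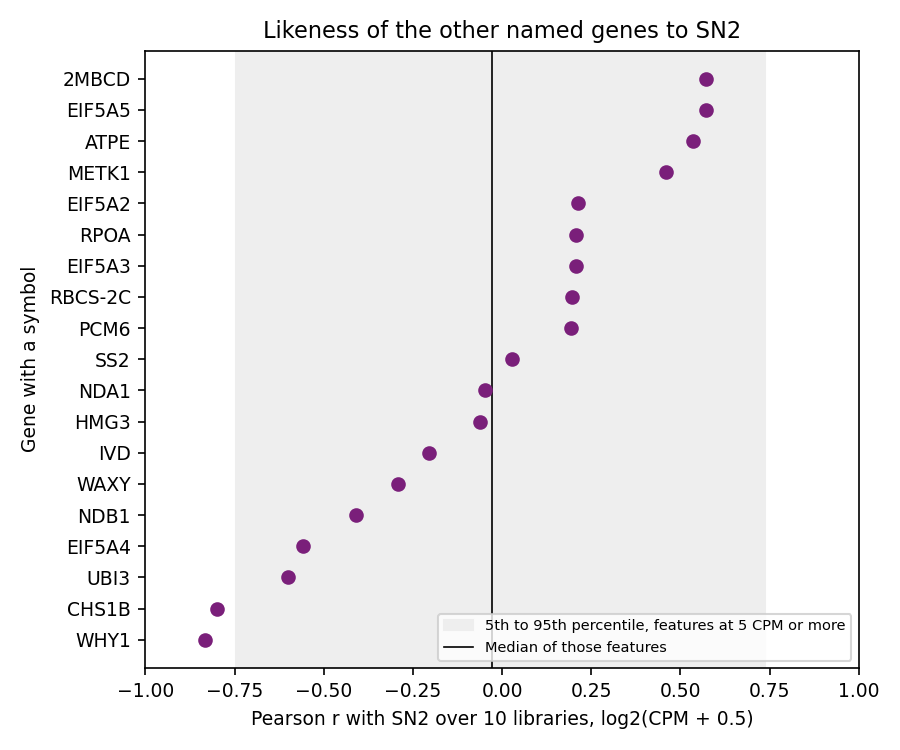
Pearson's r with SN2 over 10 libraries for the 19 other genes with a symbol, one point per gene; the grey band spans the 5th to 95th percentile of 15616 features with a mean of at least 5 CPM and the black line is their median. WHY1 (-0.83) and CHS1B (-0.80) lie below the band and no named gene lies above it. ATPE, RPOA and 2MBCD had means below 5 CPM, so they are not among the features of the band.

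The only other snakin named in the RefSeq gene table for SolTub_3.0 is sn1, and it was not analysed here, since 0 identifiers of the count table matched that reference. No other gene of the GASA family or of gibberellin response could therefore be identified among the features compared with SN2.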

How the data were processed

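Raw counts per feature were deposited by the authors as whole numbers, 1 column per library, and all columns were matched to samples by label. HISAT2 2.1.0, Trim Galore 0.5.0 and FastQC 0.11.5 are named in the submitters' processing notes. The counting program, strand setting, handling of multiply mapped reads, annotation and genome build were not given in the sources used here, so reads of near-identical family members could be split or shared. The library kit was a stranded mRNA kit, per the labels' protocols.

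Features were filtered with filterByExpr on arm (24421 of 40430 kept) and scaled by TMM in edgeR 4.0.16 (R 4.3.3). Median-ratio size factors came from DESeq2 1.42.0. No test was fitted. Ratios of scaled counts carry exact Clopper-Pearson 95% intervals and levels exact Poisson ones, for counting error only, since PCR copies cannot be told from molecules. A feature counted as beyond 2-fold when its whole interval was. Shares of features as far as SN2 used log2(CPM + 0.5). The computation of ratios, intervals and r was run on simulated Poisson counts, some given SN2's own profile. These had no spread between plants, so they check the computation only.

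SN2, the gene lists and the comparisons were chosen with earlier results of these data known. Named genes were SN2, features named as snakin or GASA, genes with a symbol, and the 2 features most and least like SN2 by r. The planned fit for other snakin genes was not run, as no feature besides SN2 could be matched.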

Additional observations from a re-analysis of the deposited data

Results flagged for a closer look

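The ultrasound difference of SN2 ran in opposite directions at 0 h and at 1 week. The log2 ratio of ultrasonicated over control was -1.07 at 0 h and 1.18 at 1 week, a difference of 2.24 on the log2 scale. Each ratio rests on 1 library per arm, and the difference was not tested. Both directions held under all 6 other scalings tried.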

How the results depend on the processing

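Of the 19 SN2 ratios, all kept their direction under all 6 other scalings, except that of 4 weeks to 0 h in ultrasonicated explants with total counts (1.05 against 0.633). Leaving abundant features out of TMM, or omitting the filter, moved none beyond its counting interval. With total counts the arm ratios at the 5 times in order were 0.371, 1.16, 1.33, 2.11 and 1.08. The control steps moved to 0.147, 1.43 and 0.21 for the first 3, the ultrasonicated ones to 0.461, 1.64, 0.334 and 4.15, the span over libraries to 22.6-fold and the shift between 0 h and 1 week to 2.51. With upper-quartile scaling the arm ratios were 0.446 at 0 h, 1.31 at 48 h and 1.06 at 4 weeks, the control steps 0.136, 1.36, 0.207 and 8.47, the ultrasonicated first, second and last steps 0.335, 1.62 and 3.93, the span 26.1-fold and the shift 2.35. With median-ratio size factors the arm ratios at 0 h and 4 weeks were 0.484 and 1.01, the steps to 24 h 0.132 and 0.2998, and the span 28.2-fold. Without rRNA features the arm ratios at 48 h, 1 week and 4 weeks were 1.31, 2.18 and 1.02, and the steps to 48 h 1.3 and 1.52. The causes were not tested.

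By mean CPM, not taken per kilobase as the ranks above were, SN2 lay above 98.8% of features. It lay above 99.0% with no filter and above 98.2% of those at 5 CPM or more. Among the latter, the shares beyond 2-fold in the direction of SN2 were 6.14%, 2.43%, 1.63%, 2.89% and 2.05% for the arms in order of time, and 4.95%, 8.55% and 6.89% for the later control steps. With total counts the share lower at 0 h was 18.2%, and those lower than 0 h in ultrasonicated explants 14.3% at 24 h, 11.2% at 48 h and 11.7% at 4 weeks. The 50 features at r of at least 0.9 became 98 by Spearman's rho, 26 with total counts, 104 without the 24 h pair, 164 without 48 h, 217 without 1 week, 269 without 4 weeks, 490 in control libraries alone and 468 in ultrasonicated ones, where fewer libraries enter r in all but the first 2. No paired analysis was run: the 5 time pairs would allow a fit of arm with time as a block, but SN2 was chosen from these libraries and no test was made. The alternatives planned for other snakin genes were not run.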
